A study of Mus musculus with 13 samples.

Results

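The 9 genes described here encode the proteins with which a mouse cell detects RNA and DNA in its cytosol and passes the signal on to the interferon genes: the RNA sensors Ifih1, Ddx58 and Dhx58, the ubiquitin ligase Trim25, the adaptors Mavs and Sting1, the kinase Tbk1, the transcription factor Irf3 and the DNA sensor Aim2. They were chosen by name, as sensors and adaptors of cytosolic nucleic acids, with earlier results of these data known. The expression table lists 19737 genes and holds 8 of the 9 under the symbol used for the choice, while the ninth, Tmem173, stands there under its current symbol Sting1. All 9 averaged 1 FPKM or more across the libraries, 13 in number, and entered the test, which covered 10817 genes. FPKM divides the fragments of a gene by its length and by the size of its library, so levels of different genes can be set side by side.

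The study measured RNA of mouse microglia, the resident macrophages of the brain, by RNA sequencing after removal of ribosomal RNA. Wild-type (WT) mice received AAV PHP.eB-EGFP (n = 3), a virus vector of a capsid that reaches the brain from the blood and here carried the fluorescent protein EGFP. 5xFAD mice received either the same EGFP vector (n = 2) or an AAV PHP.eB vector for the circular RNA circPOLR2A(9,10) (n = 4), and a further group of 5xFAD mice lacked PKR (PKR KO, n = 4). The series title speaks of delivering such circular RNAs, which hold double-stranded stretches, to neurons, and microglia were then read out. 5xFAD mice carry mutant human transgenes of familial Alzheimer's disease under the neuronal Thy1 promoter and develop amyloid plaques. PKR is a kinase that is switched on by double-stranded RNA. No vector is named for the PKR KO mice, so the comparison of that group with the EGFP groups differs in the knockout and possibly in the vector. The PKR KO libraries also differ in sequencing depth, as given below. The treatment labels of the 4 circRNA libraries read (9,10), (9,11), (9,12) and (9,13), whereas the design text gives (9,10) for all, and they were kept as 1 group. Ages, and how the microglia were isolated, are not given in the sources used here. Nothing says that the libraries of a group came from separate animals, so the p-values measure only the spread between these libraries.

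In the cell, MDA5 (the product of Ifih1) and RIG-I (Ddx58) bind double-stranded RNA, long stretches and short 5' ends respectively, and assemble MAVS on the surface of mitochondria. DNA in the cytosol is detected by cGAS, whose cyclic dinucleotide activates STING (Sting1), and both adaptors recruit the kinase TBK1, which phosphorylates IRF3 to turn on type I interferon. AIM2 also binds DNA but builds an inflammasome, which matures interleukin 1 beta. Several of the sensors are themselves interferon-stimulated genes, read through a factor complex that includes IRF9.

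The start sites of the genes were searched for the letter patterns that such factors are known to bind. Windows from 250 bases before to 50 bases after the start (RefSeq, build GRCm38.p6) were taken for 7 of the 9 genes, leaving out Dhx58 and Sting1. They were searched on both strands for a pair of GAAA with any 2 bases between them (the GAAA repeat), a form of the interferon-stimulated response element. The other patterns were AANNGAAA, a core letter pattern of IRF sites that every GAAA repeat also holds, and TTCNNNGAA, a STAT pattern. Of 32851 windows of this length over all genes, 3.44% held the GAAA repeat, 23.9% held AANNGAAA and 8.30% held TTCNNNGAA. Stretches of 30 bases around the matches are shown because they belong to the 2 RNA sensors and to the ligase gene, and they are read along the gene's own strand with the matched letters in capitals.
Ifih1, GAAA repeat (chr2:62646206-62646235, minus strand): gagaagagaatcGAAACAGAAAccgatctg
Ddx58, GAAA repeat on the opposite strand (chr4:40239804-40239833, minus strand): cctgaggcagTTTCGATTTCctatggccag
Ddx58, AANNGAAA (chr4:40239866-40239895, minus strand): tctaggttcagAAACGAAActggatccccg
Trim25, AANNGAAA on the opposite strand (chr11:88999388-88999417, plus strand): ctcctgttcagTTTCGATTccttcctcgct
The Ifih1 match begins 33 bases into the transcript, after an AANNGAAA at base 29, and the first Ddx58 match at base 3, while the second Ddx58 match begins 59 bases before the start. The Trim25 match begins 4 bases before the start. These distances are from the RefSeq starts, which for Trim25 and Ddx58 lie inside the gene spans given below from GENCODE, so that the Trim25 match falls within that span. The windows of Mavs, Tbk1, Irf3 and Aim2 held none of the 3 patterns, which says only that these letters are not in those windows. Ddx58 carried the GAAA repeat and was not called different in any of the 6 comparisons made here, whereas Ifih1 carried it and was called in 2 of them. Dhx58 and Sting1 are named only.

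Depth recovered from the steps of the low FPKM values was 45200000 to 69992000 fragments a library. Each of the 4 PKR KO libraries was deeper than every library of the other groups. Depth therefore differed along with the group in every comparison with PKR KO, and its part in those differences was not tested. Every member rested on at least 282 fragments (the lowest Dhx58 value, a counting error of 5.96%). Microglia markers (10 genes) summed to 2788 to 4940 FPKM in the libraries and each marker was above 0 in each of them. The PKR gene itself, Eif2ak2, was at 3.31 to 4.61 FPKM in the 4 PKR KO libraries, below the 6.49 to 8.11 FPKM of the other 5xFAD libraries, with WT at 4.14 to 5.23 FPKM, and which exons the knockout removes is not given in the sources used here. WT replicate 3 stood apart, with an oligodendrocyte marker sum of 1580 FPKM against 352 and 392 FPKM in the other WT libraries and the lowest microglia marker sum of all. It was also the lowest WT library for 9 of 9 members. Only the PKR KO labels give the name of a library. Whether that, or the greater depth of these libraries, goes with any difference in handling is not given in the sources used here. In bulk RNA, fewer cells of a type and less RNA per cell cannot be told apart.

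The RNA sensors Ifih1 and Dhx58 were called higher than WT with circRNA and in PKR KO, but not in 5xFAD EGFP, and the ligase Trim25 was called higher in all 3 groups. Sting1 was called lower in PKR KO alone, and Ddx58, Mavs, Tbk1, Irf3 and Aim2 showed no called difference. In all 10 libraries of 5xFAD mice, Ifih1, Dhx58 and Trim25 were each above every WT library, while over all genes tested 12.7% had 5xFAD wholly above WT. Against 5xFAD mice with EGFP, 0 of the 9 genes were called with circRNA, where 0% of all genes tested were called, and 0 of the 9 in PKR KO, where 0.0832% were. These counts are those of the whole table and say nothing particular about the sensors. The threshold was an adjusted p of 0.05 with limma on log2(FPKM + 1), and log2 changes below are on that scale, which understates changes of low genes.

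**Figure D1:**
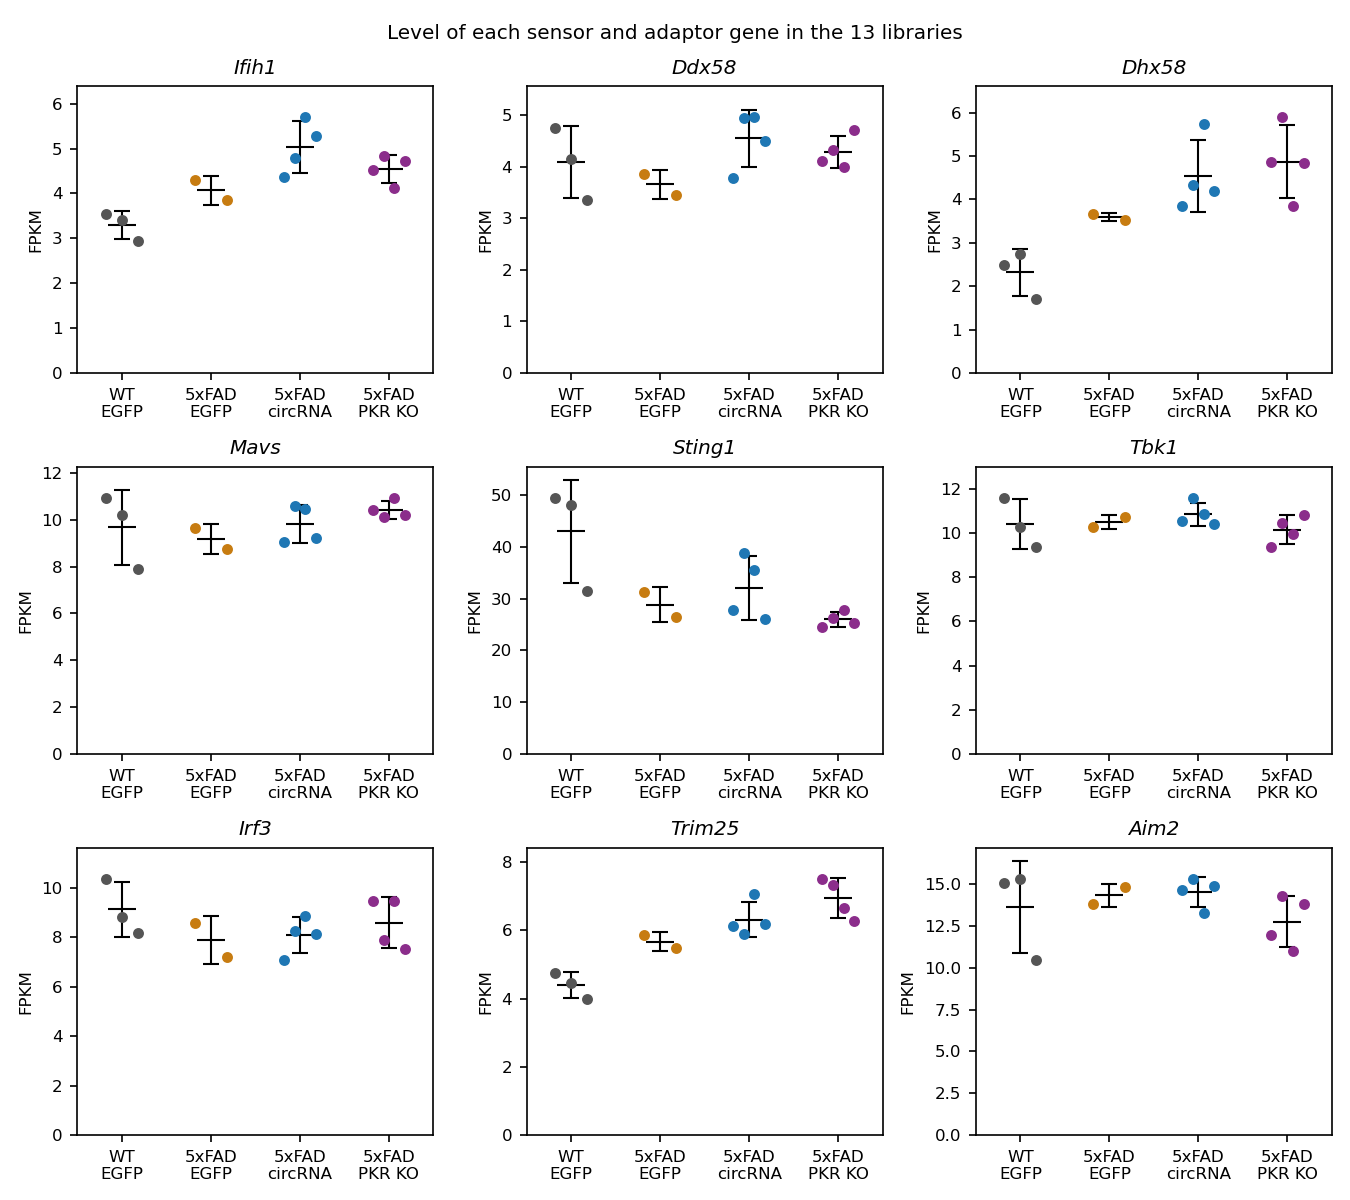
FPKM of each of the 9 genes (vertical axes, from 0) in the 13 libraries, grouped as WT EGFP (n = 3), 5xFAD EGFP (n = 2), 5xFAD circRNA (n = 4) and 5xFAD PKR KO (n = 4). Points are libraries and bars are mean ± SD. For Ifih1, Dhx58 and Trim25, the 10 libraries of 5xFAD mice lie above the 3 WT libraries. Sting1 overlaps, at 24.5 to 38.8 FPKM in 5xFAD mice against 31.5 to 49.5 FPKM in WT, with 8 of the 10 below every WT library.

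Ifih1 (chr2:62595798-62646255, minus strand, GRCm38) encodes MDA5. In WT microglia it was at 3.54, 3.41 and 2.94 FPKM, and in 5xFAD mice with EGFP at 4.30 and 3.84 FPKM. With the circRNA vector the libraries held 4.38, 4.80, 5.71 and 5.28 FPKM. All circRNA libraries were above both EGFP libraries of 5xFAD mice, and these in turn were above WT. PKR KO libraries lay at 4.53, 4.83, 4.12 and 4.71 FPKM, above WT and overlapping the 5xFAD EGFP pair. Mean levels were 1.53-fold WT with circRNA (log2 change 0.49 ± 0.09 SE, limma adjusted p = 0.00118) and 1.38-fold WT in PKR KO (0.37 ± 0.09, adjusted p = 0.00540). In 5xFAD EGFP against WT the fold was 1.24 (log2 change 0.24 ± 0.10, adjusted p = 0.151), which passed only once the libraries were rescaled by their median ratios (adjusted p = 0.0449). Against 5xFAD EGFP, circRNA gave 0.25 ± 0.10 (95% interval 0.04 to 0.46), with an unadjusted limma p of 0.0238 and an adjusted p of 0.739.

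Dhx58 (chr11:100694884-100704271, minus strand) encodes LGP2, the third RIG-I-like helicase, which binds RNA but lacks the signalling domain of the other two. It was the lowest of the 9 genes in WT, at 2.49, 2.75 and 1.71 FPKM. The 5xFAD EGFP libraries held 3.66 and 3.53 FPKM, and those with circRNA held 3.85, 4.34, 5.74 and 4.20 FPKM. PKR KO libraries held 4.87, 5.90, 3.85 and 4.84 FPKM. Every library of 5xFAD mice exceeded every WT library, and both the circRNA and the PKR KO libraries exceeded the 5xFAD EGFP pair. Its mean was 1.96-fold WT with circRNA (log2 change 0.74 ± 0.14, adjusted p = 0.00226) and 2.1-fold WT in PKR KO (0.83 ± 0.14, adjusted p = 0.000843). The 5xFAD EGFP mean was 1.55-fold WT (0.48 ± 0.17, adjusted p = 0.0818), and passed with median-ratio scaling (adjusted p = 0.0402). PKR KO against 5xFAD EGFP gave 0.34 ± 0.16 (95% interval -0.01 to 0.69, adjusted p = 0.395). Dhx58 shares 141 exonic bases with the antisense gene Dhx58os, and whether counting used the strand is not given in the sources used here, so reads of the 2 genes may be mixed.

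Ddx58 (chr4:40203773-40239828, minus strand), which encodes RIG-I, was not called against WT, unlike the other helicases with circRNA and in PKR KO. WT libraries held 4.74, 4.15 and 3.35 FPKM and 5xFAD EGFP libraries 3.86 and 3.46 FPKM. With circRNA it was at 3.79, 4.94, 4.97 and 4.50 FPKM, and in PKR KO at 4.11, 4.33, 3.99 and 4.71 FPKM. The groups overlapped in each comparison but PKR KO against 5xFAD EGFP, where every PKR KO library was higher. Against 5xFAD EGFP, the log2 change of Ddx58 with circRNA was 0.25 ± 0.12, beside 0.25 for Ifih1 and 0.26 for Dhx58. In PKR KO it was 0.18 ± 0.12, beside 0.13 for Ifih1 and 0.34 for Dhx58, and none of these was called. The log2 change against WT was -0.12 ± 0.12 in 5xFAD EGFP, 0.13 ± 0.10 with circRNA and 0.06 ± 0.10 in PKR KO, and limma's adjusted p was 0.589, 0.391 and 0.659. The 95% interval for circRNA against WT ran from -0.09 to 0.35 for Ddx58 and from 0.30 to 0.67 for Ifih1. The difference between the 2 genes was not tested.

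The balance among the 3 helicases can be read within a library, where the scaling cancels. These ratios were chosen after the values were seen and are given as a description. Ifih1 RNA was 0.746, 0.820 and 0.878 of Ddx58 RNA in the WT libraries and 0.970 to 1.17 of it in the 10 libraries of 5xFAD mice. Dhx58 RNA was 0.509 to 0.662 of Ddx58 in WT and 0.877 to 1.36 in 5xFAD mice. Thus Ddx58 was the most abundant helicase in 3 of 3 WT libraries, whereas Ifih1 exceeded it in 9 of 10 libraries of 5xFAD mice.

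**Figure D2:**
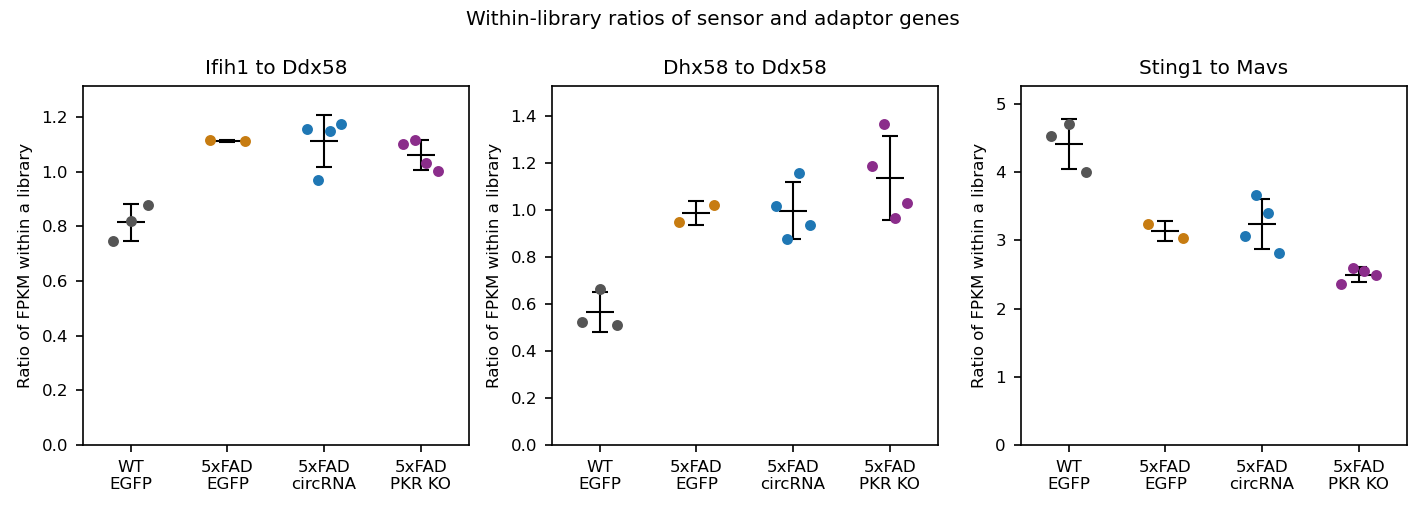
Ratios of FPKM within each library (vertical axes, from 0) for Ifih1 to Ddx58, Dhx58 to Ddx58 and Sting1 to Mavs, in the 4 groups of WT (n = 3), 5xFAD EGFP (n = 2), circRNA (n = 4) and PKR KO (n = 4). Points are libraries, bars mean ± SD. WT ratios of Ifih1 to Ddx58 (0.746 to 0.878) lie below those of 5xFAD mice (0.970 to 1.17), and WT ratios of Sting1 to Mavs (4.00 to 4.70) lie above them (2.36 to 3.66).

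Trim25 (chr11:88999376-89020293, plus strand) encodes a ubiquitin ligase known for acting on RIG-I. It was at 4.74, 4.45 and 3.99 FPKM in WT and at 5.86 and 5.47 FPKM in 5xFAD EGFP. The circRNA libraries held 6.12, 5.90, 7.06 and 6.18 FPKM, and the PKR KO libraries 7.51, 7.33, 6.65 and 6.26 FPKM. The order of the group means was WT, 5xFAD EGFP, circRNA and PKR KO, with the circRNA and PKR KO libraries overlapping and no other neighbours doing so. Against WT it rose 1.29-fold in 5xFAD EGFP (log2 change 0.31 ± 0.09, adjusted p = 0.0496), 1.44-fold with circRNA (0.44 ± 0.08, adjusted p = 0.00153) and 1.58-fold in PKR KO (0.56 ± 0.08, adjusted p = 0.000217). The first of these calls was the only one among the 9 genes in that comparison, in which 14.0% of all genes tested were called and 7.65% were higher. It held in 3 of 11 alternative analyses, and with the 2 groups fitted alone the adjusted p was 0.199. PKR KO was 0.25 ± 0.09 above 5xFAD EGFP, with an unadjusted limma p of 0.0164 and an adjusted p of 0.270.

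Mavs (chr2:131234063-131248025, plus strand), the adaptor of the RNA sensors, was nearly level. Its values were 10.9, 10.2 and 7.88 FPKM in WT, 9.64 and 8.74 FPKM in 5xFAD EGFP and 9.04 to 10.6 FPKM with circRNA. PKR KO libraries, at 10.1 to 10.9 FPKM, were above the 5xFAD EGFP pair but overlapped WT. Log2 changes against WT were -0.06 ± 0.12, 0.03 ± 0.10 and 0.11 ± 0.10 for 5xFAD EGFP, circRNA and PKR KO, with limma adjusted p-values of 0.809, 0.866 and 0.412.

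Sting1 (chromosome 18, minus strand), the adaptor of the DNA pathway, was the most abundant of the 9 genes in 13 of 13 libraries. WT libraries held 49.5, 48.0 and 31.5 FPKM and 5xFAD EGFP libraries 31.2 and 26.5 FPKM. The circRNA libraries held 27.7, 38.8, 35.6 and 26.1 FPKM, and the PKR KO libraries 24.5, 26.3, 27.9 and 25.4 FPKM. PKR KO and 5xFAD EGFP lay wholly below WT, the latter by a narrow margin to WT replicate 3, and 2 circRNA libraries lay above that WT library. In PKR KO the mean was 0.605 of WT (log2 change -0.68 ± 0.17, limma adjusted p = 0.00781). Against WT the change was -0.54 ± 0.20 in 5xFAD EGFP (adjusted p = 0.101) and -0.40 ± 0.17 with circRNA (adjusted p = 0.0970). Without WT replicate 3 these became -0.74 (adjusted p = 0.0101) and -0.61 (adjusted p = 0.00883), and PKR KO against WT -0.88.

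Markers of other cell types also differed between WT and the 5xFAD groups. Markers of border macrophages and blood leukocytes (10 genes) summed to 25.6 to 38.4 FPKM in WT and to 9.99 to 24.7 FPKM in the 5xFAD libraries, with 8 to 10 of the 10 above 0. Of these, Ms4a1 was at 0 in both 5xFAD EGFP libraries. Endothelial and mural markers (6 genes, all above 0) summed to 56.3 to 129 FPKM in WT and 24.7 to 64.5 FPKM in 5xFAD mice. Against WT, 3 of 5 tested border macrophage and leukocyte markers fell in each of the 3 5xFAD groups, and 4, 3 and 4 of 5 tested endothelial and mural markers fell in 5xFAD EGFP, circRNA and PKR KO. Over all genes 687, 871 and 2099 of 10817 were lower. Astrocyte markers (6 genes, all above 0) summed to 78.3 to 258 FPKM in WT and 119 to 214 FPKM in 5xFAD mice. Most of them went down: against WT, 1, 2 and 1 of the 6 had a log2 change above 0 in 5xFAD EGFP, circRNA and PKR KO. The medians were -0.40, -0.26 and -0.57. Among them Gfap, which marks reactive astrocytes, rose from 19.3 ± 9.49 FPKM in WT to 62.5 ± 17.1 in 5xFAD EGFP, 68.9 ± 19.8 with circRNA and 91.1 ± 21.8 in PKR KO (limma adjusted p = 0.00868, 0.000896 and 0.000159). In PKR KO, Aqp4 and Gja1 fell (-0.93 and -1.36, adjusted p = 0.0408 and 0.0123). Oligodendrocyte markers (6 genes, all tested) summed to 352 to 1580 FPKM in WT and 225 to 786 FPKM in 5xFAD mice. Neuron markers (6 genes, 3 of them tested) summed to 4.74 to 16.3 and 4.59 to 15.0 FPKM. Against WT, 0 were called by limma in either list. At an unadjusted limma p under 0.05 there were 1 neuron marker in 5xFAD EGFP and 2 oligodendrocyte markers in PKR KO, beside 2836 and 5056 of 10817 genes. The part of these other cell types in the differences of Sting1, Ifih1, Dhx58 and Trim25 was not tested. Set against Csf1r, a receptor of microglia and other macrophages, Sting1 was 0.0674 to 0.0703 in WT, 0.0530 and 0.0556 in 5xFAD EGFP, 0.0476 to 0.0589 with circRNA and 0.0399 to 0.0463 in PKR KO. WT replicate 3 had the highest of these ratios. Against the 10 microglia markers in turn, the PKR KO ratios of Sting1 were wholly below WT for 8 and wholly above for 1. The same ratios lay wholly above WT for 9 markers with Dhx58, 7 with Trim25 and 6 with Ifih1, and wholly below for 1 marker with each. For the members not called there, they lay wholly above WT for 5 markers with Ddx58, 5 with Mavs, 4 with Aim2, 3 with Tbk1 and 2 with Irf3. They lay wholly below for 1, 2, 3, 2 and 2 markers in that order.

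Tbk1 (chr10:121546455-121586787, minus strand), the kinase shared by both adaptors, varied least, with 1.24-fold between its lowest and highest library. It was at 11.6, 10.3 and 9.36 FPKM in WT and at 10.3 and 10.7 FPKM in 5xFAD EGFP. The circRNA libraries held 10.4 to 11.6 FPKM and the PKR KO libraries 9.34 to 10.8 FPKM, so all groups overlapped. The log2 change against WT was 0.01 ± 0.09, 0.06 ± 0.08 and -0.03 ± 0.08 in 5xFAD EGFP, circRNA and PKR KO, and limma's adjusted p was 0.949, 0.640 and 0.774. The widest of the 3 intervals ran from -0.19 to 0.22.

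Irf3 (chr7:44997648-45002848, plus strand), the transcription factor phosphorylated by TBK1, was at 10.4, 8.83 and 8.16 FPKM in WT. It was at 8.57 and 7.18 FPKM in 5xFAD EGFP, at 7.08, 8.25, 8.87 and 8.13 FPKM with circRNA, and at 9.47, 7.88, 9.48 and 7.52 FPKM in PKR KO. The groups overlapped throughout. Log2 changes against WT were -0.19 ± 0.13, -0.15 ± 0.11 and -0.08 ± 0.11 (limma adjusted p = 0.392, 0.332 and 0.593). The gene shares 88 exonic bases with Bcl2l12 on the other strand.

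Aim2 (chr1:173350879-173466040, plus strand), the DNA sensor of the inflammasome, was second in abundance in every library. WT libraries held 15.1, 15.3 and 10.5 FPKM, 5xFAD EGFP 13.8 and 14.8 FPKM, circRNA 13.2 to 15.3 FPKM and PKR KO 11.9, 14.3, 11.0 and 13.8 FPKM. WT replicate 3 was the lowest library of all, and the groups overlapped in every comparison. Log2 changes against WT were 0.08 ± 0.15, 0.10 ± 0.12 and -0.08 ± 0.12, with limma adjusted p-values of 0.772, 0.604 and 0.660.

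**Figure D3:**
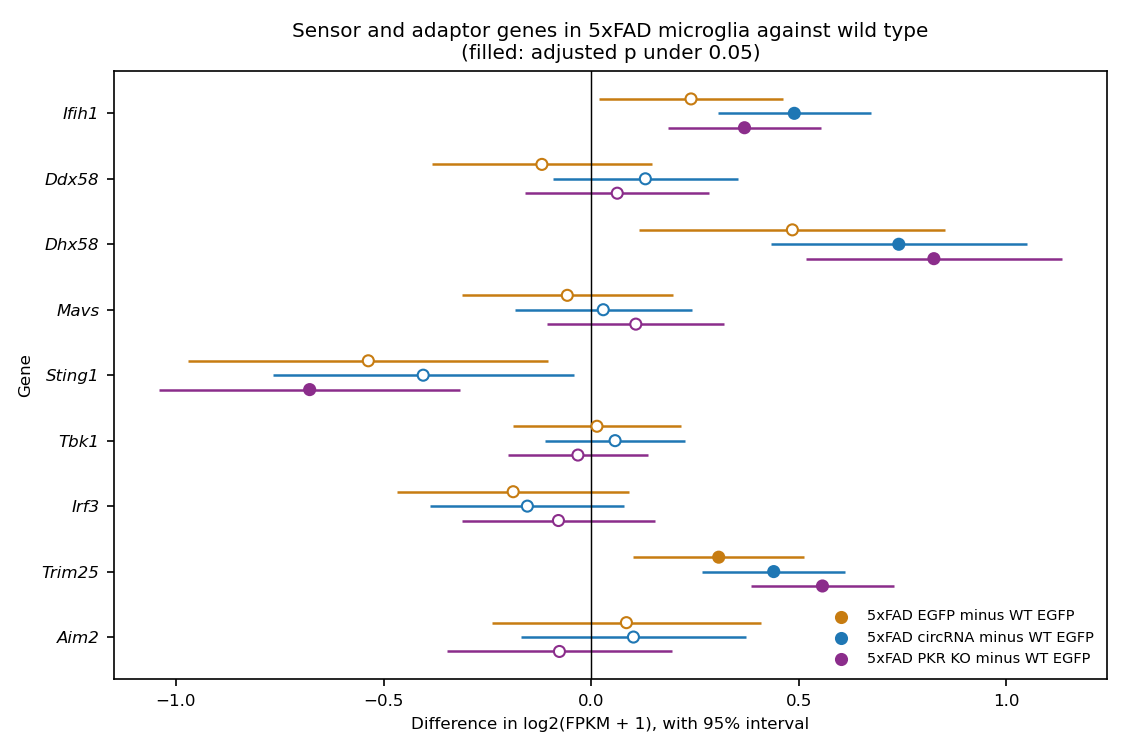
Difference in log2(FPKM + 1) between each 5xFAD group and WT EGFP (horizontal axis) for the 9 genes, with 95% intervals from limma. Filled points have an adjusted p under 0.05: Ifih1 and Dhx58 with circRNA and in PKR KO, Trim25 in all 3 groups, and Sting1, at -0.68, in PKR KO.

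In 5xFAD EGFP against WT, 3 of the 9 genes (Ifih1, Dhx58 and Trim25) lay wholly above WT and 1, Sting1, wholly below, where 16.5% and 21.1% of all genes tested did so. At an unadjusted limma p under 0.05 there were 4 of the 9, against 26.2% of all genes. Going by called genes, 3 of the 9 genes were called higher with circRNA than in WT, where 25.8% of all genes tested were called and 17.8% were higher, and the same 3 lay wholly above WT, where 20.2% of all genes did. That is 1925 genes higher and 871 lower, against 1779 and 1500 with median-ratio scaling, which left the 3 calls and added Sting1 (-0.47, limma adjusted p = 0.0303). In PKR KO against WT, 3 genes were higher and 1 was lower, where 37.0% of genes were called, 17.5% higher and 19.4% lower. The same 4 were the members without overlap, where 19.8% of all genes lay wholly above WT and 21.1% wholly below. These comparisons share the WT libraries and are not independent. With circRNA against 5xFAD EGFP, 0 of the 9 were called (0% of all genes), and at an unadjusted limma p under 0.05 there was 1, Ifih1, against 4.83% of all genes. The circRNA libraries lay wholly above the EGFP pair for 3 of the 9 (Ifih1, Dhx58 and Trim25) and for 16.6% of all genes. All 9 changes in that comparison were above 0, as were 8410 of the 10817 genes, and 4 of the 9 signs turned with median-ratio scaling (Mavs, Tbk1, Irf3 and Aim2). The median change of the 9 was 0.13 and that of all genes 0.08. In PKR KO against 5xFAD EGFP 0 were called (0.0832% of all genes), with 1, Trim25, at an unadjusted limma p under 0.05 (13.0% of all genes). PKR KO lay wholly above the EGFP pair for 4 of the 9 (Ddx58, Dhx58, Mavs and Trim25) and for 17.7% of all genes. Oligodendrocyte markers differed between the same groups, with sums of 225 to 375 FPKM in PKR KO against 636 and 680 FPKM, 6 of 6 markers below 0 in log2 change, 0 called by limma and 4 at an unadjusted p under 0.05. Their part in these differences was not tested.

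A direct comparison of circRNA with PKR KO called 0 of the 9 genes (6.19% of all genes) and 0 at an unadjusted limma p under 0.05 (25.5% of all genes). Sting1 was 0.27 ± 0.15 higher with circRNA (95% interval -0.06 to 0.61, adjusted p = 0.285), and Trim25 was at -0.12 ± 0.07 (95% interval -0.28 to 0.04, adjusted p = 0.334). With median-ratio scaling the Trim25 difference was -0.21 and was called (adjusted p = 0.0353), and the genes called over the whole table went from 463 higher and 207 lower to 260 and 681. The 6 oligodendrocyte markers had overlapping sums of 306 to 786 FPKM with circRNA and 225 to 375 FPKM in PKR KO. All 6 had a log2 change above 0 (median 0.87), with 0 called and 4 at an unadjusted limma p under 0.05. Their part in the Sting1 and Trim25 differences was not tested. The intervals above do not show that the circular RNA and the knockout act alike on the sensors.

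By level, the order over the 13 libraries was Sting1, Aim2, Tbk1, Mavs, Irf3, Trim25, Ifih1, Ddx58 and Dhx58. Neighbours kept that order in 13 of 13 libraries for Sting1 over Aim2, Aim2 over Tbk1, Irf3 over Trim25 and Trim25 over Ifih1. Tbk1 exceeded Mavs in 11 of 13 and Mavs exceeded Irf3 in 12 of 13, and the means of these neighbours differed by no more than their spread in WT. The helicases changed places, with Ddx58 above Dhx58 in 7 of 13 libraries, 3 of them WT. The adaptors, kinase and transcription factor common to the pathways were thus at 7.08 FPKM or more in every library, and the 3 RNA helicases at 5.90 FPKM or less.

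Over the 13 libraries, Ifih1, Dhx58 and Trim25, which were all called higher than WT, also tracked one another. The correlation of log2(FPKM + 1) was 0.92 between Ifih1 and Dhx58, 0.94 between Dhx58 and Trim25 and 0.84 between Ifih1 and Trim25, and it was 0.63 between Ifih1 and Ddx58. Ddx58 was closest to Mavs among the members (r = 0.74), and Tbk1 to Aim2 (r = 0.76). These are descriptions over 13 points that share the division into 4 groups. Among the 3 genes most like Ifih1 were Irf9 (r = 0.97), the DNA-binding subunit of the interferon-induced STAT complex, and Psme1 (0.97), a proteasome activator subunit. Most like Dhx58 were Ppfia4, Ptgfrn and Rpl12 (r = 0.98 to 0.99), and most like Trim25 were Edf1, Sord and Alkbh2 (0.97 to 0.98). Sting1 was most like St3gal5, a ganglioside synthase, Serinc3 and the leukotriene receptor gene Cysltr1 (all 0.97). The closest genes to Ddx58 were Eloa, C2cd3 and Dtx3l (0.90 to 0.92), to Mavs Nfya, Akr1b10 and Macroh2a1 (0.94 to 0.97) and to Irf3 Zfp276, Unkl and Gm50253 (0.94 to 0.97). Tbk1 (Zfp992, Zfp292 and Hpgd, 0.91 to 0.93) and Aim2 (Ewsr1, Ppip5k2 and Ebf3, 0.88 to 0.90) had looser neighbours.

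Around the RNA sensors, 14 of 16 listed regulators of RIG-I-like receptors were tested, and 0 were called different between 5xFAD EGFP and WT, with 0 at an unadjusted limma p under 0.05, where Pcbp2 (0.19, unadjusted p = 0.0557) and Cyld (0.13, unadjusted p = 0.0863) came closest. Over all genes 14.0% were called there and 26.2% had such an unadjusted p. With circRNA, 2 rose against WT, Pcbp2 (0.34, adjusted p = 0.00625), which brings MAVS to degradation, and Cyld (0.21, adjusted p = 0.0174), a deubiquitinase. In PKR KO Pqbp1 (0.41, adjusted p = 0.0132) and Pcbp2 (0.29, adjusted p = 0.0117) rose. Over all genes 17.8% and 17.5% were higher in these comparisons, so the counts say nothing particular about the list. Tomm70a, a mitochondrial import receptor that binds MAVS, was higher with circRNA than in PKR KO, at 4.15 ± 0.20 against 3.25 ± 0.09 FPKM (SD, n = 4 each, log2 change 0.28, limma adjusted p = 0.0174). It was the 1 of the 14 tested called there, where 6.19% of all genes were called. The other 2, Zcchc3, a cofactor of the RNA sensors, and Rnf125, a ubiquitin ligase of RIG-I, averaged under 1 FPKM and were not tested, and their values are given after they were seen. Zcchc3 was at 1.40 ± 0.12 FPKM in WT and at 0.80 ± 0.05, 0.98 ± 0.22 and 0.77 ± 0.19 FPKM in 5xFAD EGFP, circRNA and PKR KO. Rnf125 was at 1.13 ± 0.53 FPKM in WT and at 0.31 ± 0.15, 0.39 ± 0.09 and 0.36 ± 0.14 FPKM in the same order. For the 14 tested genes the median change was 0.02, 0.11 and 0.01 against WT in 5xFAD EGFP, circRNA and PKR KO, beside -0.03, 0.02 and -0.05 for all genes. Without WT replicate 3, 1 rose and 2 fell with circRNA, and 2 rose and 1 fell in PKR KO.

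In a list of genes of cytosolic DNA sensing and nucleic acid clearance, which also holds the RNA editor Adar, the RNA helicase Skiv2l and the ubiquitin ligases Trim56 and Rnf5, 2 of 15 tested rose in 5xFAD EGFP against WT and 8 rose in both circRNA and PKR KO against WT, with 0 lower. Over all genes tested, 7.65%, 17.8% and 17.5% were higher in these comparisons. Zbp1, a sensor of Z-form nucleic acid, was at 0.50 ± 0.09 FPKM in WT, 1.97 ± 0.33 in 5xFAD EGFP, 3.25 ± 0.79 with circRNA and 3.12 ± 0.47 in PKR KO (SD; n = 3, 2, 4 and 4). Its log2 changes against WT were 0.99, 1.49 and 1.46 (limma adjusted p = 0.00176, 7.99e-06 and 7.21e-06). Ifi204, a DNA-binding protein gene of a family of near copies and therefore uncertain, went from 1.55 ± 0.37 FPKM in WT to 5.85 ± 0.79, 7.73 ± 1.02 and 8.49 ± 1.70 FPKM. Trex1, the cytosolic DNA exonuclease, rose from 5.62 ± 0.76 FPKM to 9.10 ± 2.45 with circRNA (adjusted p = 0.0149) and 10.1 ± 0.94 in PKR KO (adjusted p = 0.00287). Adar, which edits double-stranded RNA, rose by 0.53 and 0.62 on the log2 scale (adjusted p = 0.00164 and 0.000383). Cgas, which makes the STING ligand, was at 2.56 ± 0.64, 3.04 ± 0.33, 3.43 ± 0.47 and 2.89 ± 0.04 FPKM in the 4 groups and was not called. The median change of the list was 0.16, 0.33 and 0.32 in the 3 comparisons with WT. Without WT replicate 3 the counts higher were 2, 6 and 8, with 1 lower in 5xFAD EGFP.

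In the TRAF, TBK1 and IRF module, 12 of 13 genes were tested. Optn, an autophagy receptor that binds TBK1, rose in all 3 comparisons with WT, from 1.51 ± 0.39 FPKM to 3.56 ± 0.23, 4.02 ± 0.38 and 4.24 ± 0.61 FPKM (log2 change 0.87, 1.01 and 1.06; limma adjusted p = 0.00131, 4.56e-05 and 2.29e-05). No other gene of the list was called in 5xFAD EGFP, where 7.65% of all genes were higher. With circRNA 5 rose and 2 fell: Irf7, the interferon-inducible relative of Irf3, rose by 0.74 (adjusted p = 0.00730), Tank by 0.33 (adjusted p = 0.0147), and the TBK1-binding adaptor Tbkbp1 fell by 0.48 (adjusted p = 0.0105). In PKR KO 4 rose, among them Irf7 (0.80, adjusted p = 0.00334), Tradd (0.46, adjusted p = 0.00351) and Traf3 (0.35, adjusted p = 0.00349). Irf7 was at 3.23 ± 1.02 FPKM with circRNA and 3.37 ± 0.61 in PKR KO against 1.49 ± 0.18 in WT. Over all genes 17.8% were higher with circRNA, with 871 of 10817 lower, and 17.5% were higher in PKR KO. Without WT replicate 3 the list had 1, 4 and 4 genes higher and 1, 2 and 1 lower in the 3 comparisons. With median-ratio scaling it had 1, 4 and 5 higher and 1, 2 and 0 lower. The list's medians were 0.02, 0.08 and 0.19.

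Among the 5 partners of AIM2 in the inflammasome, Il1b rose in all 3 comparisons with WT. It went from 3.91 ± 1.51 FPKM in WT to 12.2 ± 2.97 in 5xFAD EGFP (log2 change 1.45, limma adjusted p = 0.00399), 10.7 ± 2.17 with circRNA (1.28, adjusted p = 0.00131) and 20.4 ± 4.62 in PKR KO (2.15, adjusted p = 2.00e-05). Il1b was lower with circRNA than in PKR KO by 0.87 (limma adjusted p = 0.0329). It was the 1 of 5 called there, where 6.19% of all genes were called. Casp1, the inflammasome protease, rose with circRNA (0.47, adjusted p = 0.0240) and in PKR KO (0.43, adjusted p = 0.0268). Il18 fell in PKR KO, from 11.5 ± 1.48 to 8.96 ± 0.23 FPKM (-0.32, adjusted p = 0.00571). Over all genes 7.65%, 17.8% and 17.5% were higher and 687, 871 and 2099 of 10817 lower. Without WT replicate 3 the list had 1 gene higher in each comparison, and 1, 1 and 2 lower. With median-ratio scaling it had 1, 2 and 2 higher and 0, 2 and 1 lower. Medians were 0.22, 0.40 and 0.31.

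At the output of the pathway, the interferon ligands were near the limit of detection. Ifnb1 had 0 fragments in each WT library, 1 and 3 in 5xFAD EGFP, 1, 4, 3 and 1 with circRNA and 5, 0, 8 and 2 in PKR KO, where a count of 0 allows up to 3 fragments. Ifna4 had 1 fragment in 1 library, and Ifna2 had 0 in all 13. No fold change was computed from these. Of 4 genes of the ligand and receptor list that were tested, Ifnar2, a chain of the type I interferon receptor, rose with circRNA (0.53, limma adjusted p = 0.0117) and in PKR KO (0.52, adjusted p = 0.0100), from 18.6 ± 3.83 FPKM in WT to 27.1 ± 3.74 and 26.7 ± 1.10 FPKM. None of the 4 was called in 5xFAD EGFP against WT (1 at an unadjusted p under 0.05, Ifnar1), where Ifnar1 was at -0.25 (unadjusted p = 0.0190) and Ifnar2 at 0.32 (adjusted p = 0.229). Over all genes 14.0% were called in that comparison and 26.2% had such an unadjusted p, and 17.8% and 17.5% were higher with circRNA and in PKR KO. The list's medians were -0.10, -0.01 and 0.08.

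Of 18 interferon-stimulated genes tested, 8 were higher in 5xFAD EGFP than in WT and 16 each with circRNA and in PKR KO, with 0 lower, beside 7.65%, 17.8% and 17.5% higher over all genes. The list's medians were 0.47, 0.90 and 0.93. Ifi27l2a was at 3.14 ± 0.59 FPKM in WT and at 19.2 ± 5.45, 29.2 ± 8.96 and 24.6 ± 6.69 FPKM in 5xFAD EGFP, circRNA and PKR KO. Ifit2, which binds viral RNA, was at 1.52 ± 0.39 FPKM in WT and at 4.41 ± 1.05, 5.81 ± 0.54 and 6.11 ± 1.34 FPKM in the same order. Oasl2 rose by 0.94, 1.39 and 1.39 on the log2 scale (limma adjusted p = 0.00404, 2.84e-05 and 2.03e-05), and the chemokine gene Cxcl10 by 1.00, 1.10 and 1.40 (adjusted p = 0.00896, 0.000772 and 0.000105). Ifit3 rose by 1.17 with circRNA (adjusted p = 0.00101). Cmpk2 and Ddx60 were the 2 not called with circRNA or in PKR KO. Against 5xFAD EGFP, 0 of the 18 were called with circRNA or in PKR KO, while 6 and 5 had an unadjusted limma p under 0.05. Over all genes 0% and 0.0832% were called and 4.83% and 13.0% had such an unadjusted p. The counts against WT without WT replicate 3 were 8, 16 and 15.

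**Figure D4:**
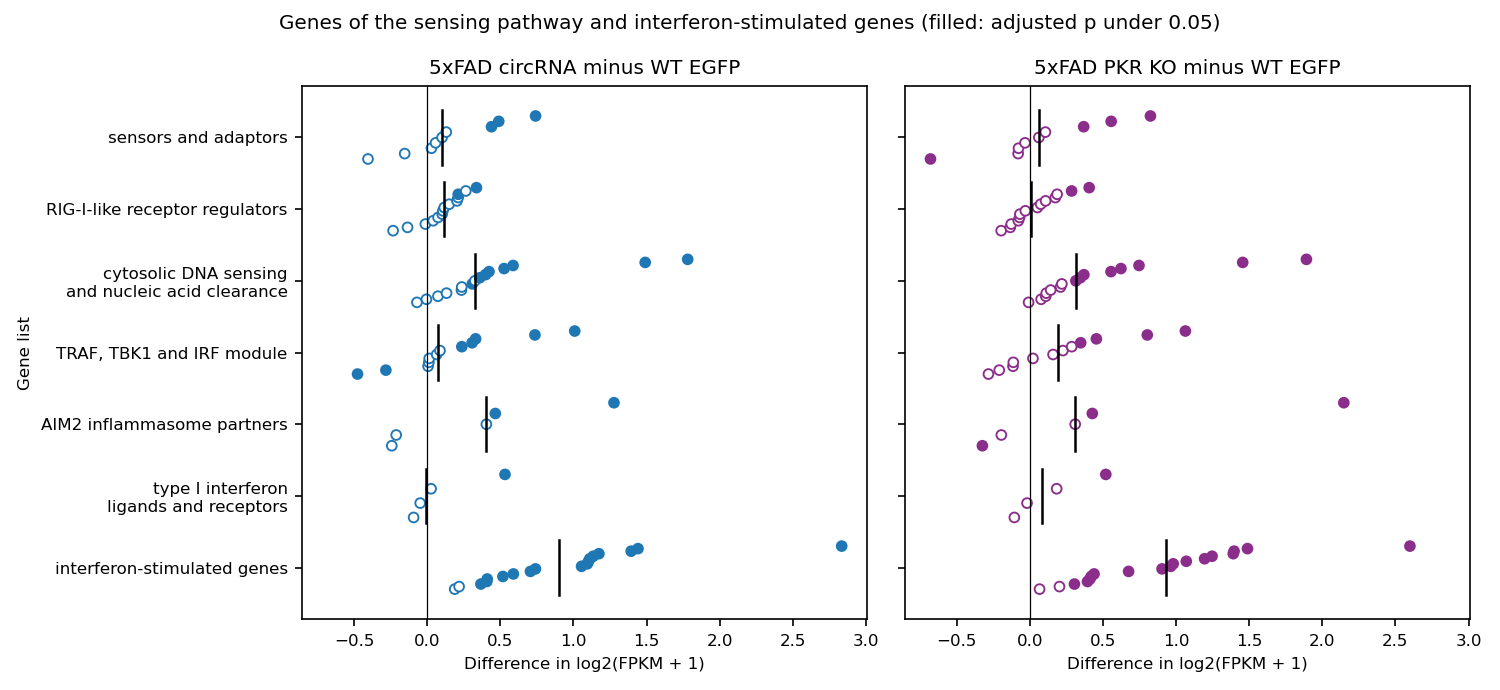
Difference in log2(FPKM + 1) from WT EGFP (horizontal axis) with circRNA and in PKR KO, for the 9 sensors and adaptors and 6 lists of related genes (vertical axis). Each point is a gene, filled where the adjusted p was under 0.05, and the bar is the list's median. In both panels 16 of 18 interferon-stimulated genes and 8 of 15 genes of DNA sensing and clearance are called higher, as are 3 of 9 sensors and adaptors.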

How the data were processed

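The authors deposited 1 table of FPKM values, with 1 column for each of 13 libraries and 19737 genes. The submitters' processing notes name Bowtie2 2.3.5, HISAT2 2.1.0, featureCounts 1.5.1 and build mm10, with no role for each. Libraries were stranded, per the labels' protocols. FPKM is divided by a library total, so a change in abundant genes can move all others.

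Differences were tested with limma 3.58.1 in R 4.3.3 (eBayes with an intensity trend, two-sided) on log2 values of FPKM plus a pseudocount of 1. The 10817 genes that averaged 1 FPKM or more entered. All libraries entered 1 fit with 9 residual degrees of freedom, and p-values were adjusted by Benjamini-Hochberg over all genes tested in each of 6 comparisons. In simulated libraries with 200 genes changed by 1 log2 unit, 84.0% were recovered for 5xFAD EGFP against WT, 92.5% for circRNA against WT and 94.0% for PKR KO against WT (10817 genes each). Of the genes called there, 3.45%, 7.04% and 5.53% had not been changed, and 7.39% for circRNA against PKR KO. Depth came from low FPKM values as whole fragments (91.6% of 25535 within 0.02, against 4% by chance) with exon lengths of GENCODE M21. Gene positions are from that annotation.

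The members and lists were chosen with earlier results of these data known. Every member is named, and of each other list the called genes with the largest changes, up to 4 in a comparison, or the 2 with the smallest unadjusted p where none was called. A few others (Cgas, Cmpk2, Ddx60, Zcchc3 and Rnf125) and the ratios were chosen after their values were seen. Alternatives were another pseudocount, 2 other filters, median-ratio scaling, 2 groups alone, a replicate block and leaving out each library. The list counts under median-ratio scaling and without WT replicate 3 were added after seeing the data. A few items covered by these rules are not reported here.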

Additional observations from a re-analysis of the deposited data

How the results depend on the processing

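The calls of Ifih1, Dhx58 and Trim25 against WT with circRNA and in PKR KO, and of Sting1 in PKR KO, held in each of the 13 alternatives run for them. For 5xFAD EGFP against WT the count of members called fell from 1 to 0 with a filter at a mean of 0.1 FPKM, with no filter, with the 2 groups alone and with the replicate block, ranged from 0 to 1 on leaving out single libraries, and became 3 with median-ratio scaling. The 1 called without WT replicate 3 was Sting1 (adjusted p = 0.0101), while Trim25 was lost there (0.25, adjusted p = 0.0936), and without WT replicate 2 (adjusted p = 0.0822) or 5xFAD EGFP replicate 1 (0.256) or 2 (0.157). For circRNA against PKR KO the count went from 0 to 1 with that scaling. Over all genes, that scaling changed the genes called higher and lower from 1925 and 871 to 1779 and 1500 for circRNA against WT, from 1898 and 2099 to 2374 and 2081 for PKR KO against WT, and from 463 and 207 to 260 and 681 for circRNA against PKR KO. For 5xFAD EGFP against WT, 827 higher and 687 lower became 386 and 123 with the 2 groups alone, and 391 and 275 or 487 and 79 without 5xFAD EGFP replicate 1 or 2. For circRNA against WT the 2 groups alone gave 1269 and 456. For PKR KO against 5xFAD EGFP, 9 and 0 became 0 with pseudocount 0.1, with a filter at 0.1 FPKM and with no filter, 41 and 5 with median-ratio scaling, 212 and 365 with the 2 groups alone and 22 and 0 with the replicate block, and 0 to 2 higher without either EGFP library or any PKR KO library. For circRNA against PKR KO, leaving out circRNA replicate 1 or 3 gave 81 and 81 or 152 and 158, and leaving out PKR KO replicate 1, 2 or 3 gave 70 and 77, 84 and 80 or 118 and 107. The cause was not tested. All changes of sign were among differences that no setting called. With median-ratio scaling they were, for circRNA against 5xFAD EGFP, Mavs (-0.0057), Tbk1 (-0.050), Irf3 (-0.056) and Aim2 (-0.078), for circRNA against WT, Mavs (-0.034) and Tbk1 (-0.0063), and for circRNA against PKR KO, Ddx58 (-0.015) and Tbk1 (-0.0030). With the replicate block, Tbk1 (-0.010) and Aim2 (-0.013) turned in 5xFAD EGFP against WT. The labels do not tie replicate numbers to animals, so the block tests a shared number only.

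Leaving out single libraries gave ranges across 0 for 14 uncalled differences. In 5xFAD EGFP against WT, Mavs ran from -0.18 to 0.028, Tbk1 from -0.053 to 0.087 and Aim2 from -0.081 to 0.17. With circRNA against WT, Mavs ran from -0.098 to 0.11, Tbk1 from -0.0098 to 0.13 and Aim2 from -0.064 to 0.19. In PKR KO against WT, the ranges were -0.044 to 0.16 for Ddx58, -0.020 to 0.19 for Mavs, -0.099 to 0.041 for Tbk1, -0.15 to 0.0077 for Irf3 and -0.24 to 0.011 for Aim2. Against 5xFAD EGFP, Irf3 ran from -0.078 to 0.15 and Aim2 from -0.029 to 0.063 with circRNA, and Irf3 from -0.0036 to 0.22 in PKR KO. All 11 low ends against WT came without WT replicate 3. The 5xFAD EGFP group has 2 libraries, which limits every comparison with it.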
